A study of Mus musculus with 4 samples.

Results

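Late neutrophil granule and alarmin genes were examined in RNA-seq libraries of mouse LSK cells. These are marrow cells that lack lineage markers and carry both Sca-1 and c-Kit, a sort that enriches blood stem cells and early progenitors. The set holds 10 genes chosen by symbol, S100a8, S100a9, Camp, Ltf, Ngp, Lcn2, Mmp8, Mmp9, Chil3 and Lyz2, of 47561 symbols in the deposited tables. All 10 were present in the tables, and all 10 reached 1 FPKM (fragments scaled by transcript length and library size) in at least 2 libraries, as did 13148 genes in all. Cells came from bone marrow of C57BL/6 mice aged 12 weeks, and each of the 4 libraries, named f/f 1, f/f 2, cKO 1 and cKO 2 after genotype and replicate, stands for 1 mouse. The 2 Metrn f/f mice, whose genotype is also labelled wild type, carried a floxed Metrn (Meteorin) gene. The 2 Metrn cKO mice had, besides that floxed gene, LysM. LysM is the usual name of a Cre driver placed in the lysozyme gene Lyz2, which is active in neutrophils, monocytes and macrophages and not in most LSK cells. The series asked how Meteorin of macrophages acts on stem and progenitor cells.

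Neutrophils fill their granules in waves as they mature. Primary granule proteins such as myeloperoxidase and elastase are made by promyelocytes, secondary granule proteins such as lactoferrin, cathelicidin and lipocalin by myelocytes and metamyelocytes, and tertiary granule proteins such as gelatinase by later stages. The late genes depend on the transcription factor C/EBP epsilon, and their transcripts are very abundant in marrow myelocytes but low in stem cells. S100A8 and S100A9 form calprotectin, a calcium- and metal-binding complex of the neutrophil cytosol that acts as an alarmin once released.

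The libraries of each genotype differed widely from each other. Libraries f/f 2 and cKO 1 carried more transcript of mature blood cells than f/f 1 and cKO 2, and less of several LSK markers. The highest of these markers were Adgrg1, Cd34 and Flt3, and Adgrg1, an adhesion receptor of stem cells, had 406, 133, 128 and 421 FPKM in the order f/f 1, f/f 2, cKO 1 and cKO 2. Kit, which encodes the sort marker c-Kit, had 108 FPKM in f/f 1, 24.8 in f/f 2, 25.9 in cKO 1 and 116 in cKO 2. Of the 10 LSK and stem cell markers tested, 6 were at least 2-fold lower and 1, Ly6a, at least 2-fold higher in f/f 2 than in f/f 1 (8 and 0 as shares of the sum), where 29% of all tested genes were 2-fold lower. In cKO 1 against cKO 2, 9 were at least 2-fold lower, as were 19.9% of all tested genes. Ly6a, which encodes the other sort marker, Sca-1, went the opposite way to Kit in deposited FPKM. It was higher in f/f 2 than in f/f 1 and in cKO 1 than in cKO 2. The differences in log2(FPKM + 1) were 1.14 and 0.33. The values summed to between 392717 and 671802 FPKM per library, and read totals are unknown. Metrn itself, the targeted gene, had 29.3 FPKM in f/f 1, 66.3 in f/f 2, 42.3 in cKO 1 and 36.7 in cKO 2. The genotypes overlapped, with a log2 fold change of -0.16 (limma's standard error, SE, 0.49), and the level in LSK cells does not show whether the gene was deleted in myeloid cells. Over all tested genes the root mean square difference in log2(FPKM + 1) was 0.33 between f/f 1 and cKO 2 and 0.72 between f/f 2 and cKO 1, but 1.13 between the Metrn f/f libraries and 0.95 between the Metrn cKO libraries. Libraries were thus nearer to one of the other genotype than to their own. Whether each library carries the right genotype label was not tested, and every genotype comparison rests on these labels. In bulk RNA, fewer cells of a type and less RNA per cell cannot be told apart.

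The sequences before the start sites are shown for 6 genes, of which 5 had large and parallel differences between libraries while Mmp8 had smaller ones. Each is 150 bases on GRCm38.p6, from RefSeq, written 5′ to 3′ in the direction of the gene and ending before the most upstream start annotated by RefSeq or GENCODE. Capitals mark matches on either strand to TTNNGNAA, a loose form of the C/EBP site, or GAGGAA, the core of the site of the myeloid factor PU.1. Lyz2, which also had large differences, is left out, and its 150 bases by the same rule held no whole match to either motif.
S100a8, chr3:90668828-90668977, plus strand: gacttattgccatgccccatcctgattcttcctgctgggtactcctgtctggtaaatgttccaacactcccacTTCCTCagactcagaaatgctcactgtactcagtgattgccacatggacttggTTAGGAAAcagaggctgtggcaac
S100a9, chr3:90695722-90695871, minus strand: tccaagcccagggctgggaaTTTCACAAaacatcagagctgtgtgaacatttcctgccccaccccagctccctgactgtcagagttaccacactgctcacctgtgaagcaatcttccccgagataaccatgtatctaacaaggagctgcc
Ngp, chr9:110419597-110419746, plus strand: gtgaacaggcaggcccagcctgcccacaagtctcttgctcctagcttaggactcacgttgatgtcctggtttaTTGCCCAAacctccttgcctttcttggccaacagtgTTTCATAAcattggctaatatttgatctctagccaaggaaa
Ltf, chr9:111019121-111019270, plus strand: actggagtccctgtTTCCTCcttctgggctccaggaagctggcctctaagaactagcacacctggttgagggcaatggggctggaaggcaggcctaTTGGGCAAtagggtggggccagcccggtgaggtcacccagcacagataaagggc
Chil3, chr3:106167565-106167714, minus strand: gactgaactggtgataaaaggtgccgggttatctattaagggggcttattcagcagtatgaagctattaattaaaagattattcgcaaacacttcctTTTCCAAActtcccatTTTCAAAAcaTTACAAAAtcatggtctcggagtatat
Mmp8, chr9:7558279-7558428, plus strand: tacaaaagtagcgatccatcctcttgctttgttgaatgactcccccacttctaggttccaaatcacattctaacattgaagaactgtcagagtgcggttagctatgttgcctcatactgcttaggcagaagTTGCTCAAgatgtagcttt

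RefSeq promoters running from 250 bases before the start to 50 after it were matched for 9 of the 10 genes. TTNNGNAA occurred in 8 of these 9, against 40.7% of all 32851 promoters of that length, with Camp the exception. GAGGAA occurred in 4 of 9 (S100a8, Ltf, Lcn2 and Mmp8), against 28.3% of all promoters. TATAAA, the letters of the TATA box, occurred in 4 of 9 (S100a8, S100a9, Mmp8 and Chil3), against 13.6%. It lay 30 bases before the RefSeq start in S100a8, where TATA boxes usually lie, and at or across the start in the other 3. All searches covered both strands, and no match of a motif overlapped a match of another. Ngp had 3 matches to TTNNGNAA, 11, 102 and 138 bases before its RefSeq start, and Chil3 had 3 as well. A match describes the letters only and is not evidence of binding.

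**Figure D1:**
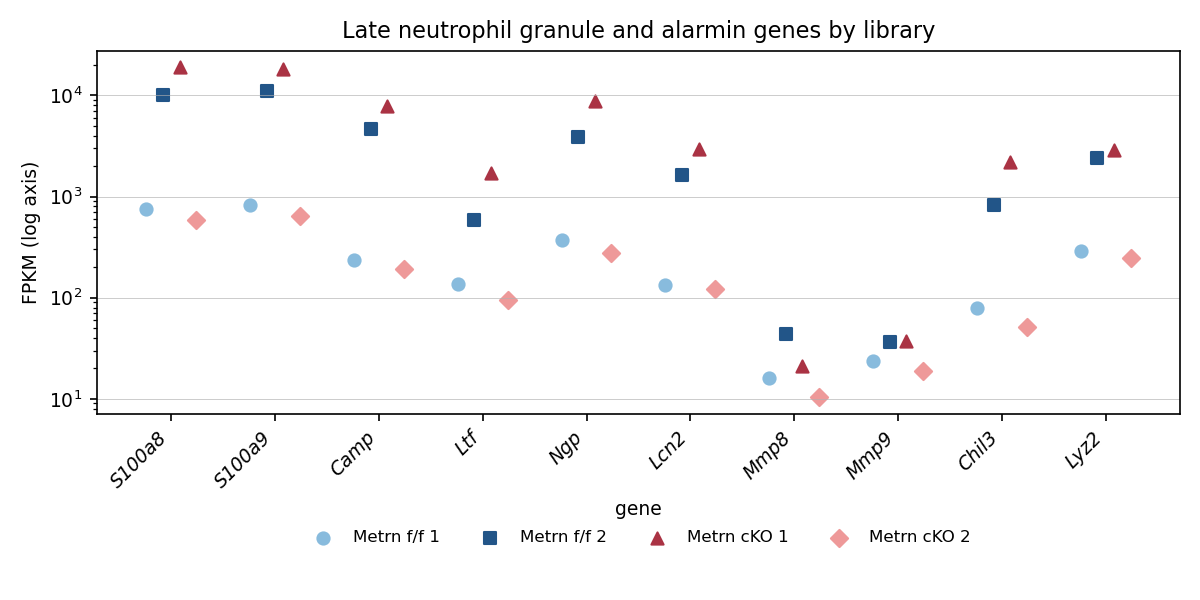
FPKM of the 10 genes (log axis) in each of the 4 libraries, 1 point per mouse. In 8 genes f/f 2 and cKO 1 lie far above the other libraries, while Mmp8 and Mmp9 lie between 10.4 and 43.3 FPKM throughout.

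The alarmins were the most abundant of the set. S100a8 (GRCm38 chromosome 3, 90668978 to 90670035) was at 756 FPKM in f/f 1, 9998 in f/f 2, 19009 in cKO 1 and 586 in cKO 2. S100a9 (chromosome 3, 90692632 to 90695721), which lies 22.6 kb from S100a8, had 827, 11139, 18082 and 646 FPKM in the same order. The Metrn f/f values of both genes lay inside the range of the Metrn cKO values, and the first and second rank among all genes of cKO 1 went to this pair. In f/f 2 they ranked 4 and 2, and in f/f 1 and cKO 2 between 62 and 100. The ratio of S100a8 to S100a9 was nearly the same in all libraries, at 0.915, 0.898, 1.05 and 0.907, although the level itself varied up to 32.4-fold.

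Secondary granule genes had the same order of libraries. Camp, the precursor of the antimicrobial cathelicidin peptide (chromosome 9, 109847379 to 109849617), had 235 FPKM in f/f 1, 4617 in f/f 2, 7818 in cKO 1 and 190 in cKO 2. Ngp, neutrophilic granule protein, a cathelicidin relative (chromosome 9, 110419747 to 110423012), had 372, 3894, 8718 and 277 FPKM. Ltf, the iron-binding lactoferrin (chromosome 9, 111019271 to 111042767), had 135, 592, 1725 and 94.5 FPKM. The 3 genes lie in this order on chromosome 9, with gaps of 570 and 596 kb. Lcn2, which encodes the siderophore-binding lipocalin 2 (chromosome 2, 32384633 to 32388252), had 135, 1638, 2926 and 123 FPKM. Each of the 4 genes was highest in cKO 1, second in f/f 2 and lowest in cKO 2. They did not keep fixed proportions: Ltf was 100.4% of Lcn2 in f/f 1, 36.1% in f/f 2, 58.9% in cKO 1 and 76.9% in cKO 2.

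Chil3, the chitinase-like protein Ym1 (chromosome 3, 106147554 to 106167564), had 79.5 FPKM in f/f 1, 832 in f/f 2, 2193 in cKO 1 and 51.8 in cKO 2. Of its transcript windows of 50 bases, 29.4% also occur in Chil4 or Gm6522, so reads could be split between them. Chil4 reached 5.77 FPKM at most. The related Chil1 had 6.52, 46.4, 79.1 and 5.09 FPKM, the same order of libraries, and Chit1, chitotriosidase, had 0.644, 2.59, 6.32 and 0.458. Of the 7 genes of this family in the tables, 5 were tested.

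The metalloproteinase genes were low and differed less. Mmp8, the neutrophil collagenase (chromosome 9, 7558456 to 7568485), had 16.0 FPKM in f/f 1, 43.3 in f/f 2, 21.1 in cKO 1 and 10.4 in cKO 2. Mmp9, gelatinase B of tertiary granules (chromosome 2, 164940780 to 164955850), had 23.5, 36.2, 37.0 and 19.0 FPKM. Mmp8 was the only member lower in cKO 1 than in f/f 2 in deposited FPKM, and with median-of-ratios scaling Mmp9 was slightly lower too, at a ratio of 0.979. Mmp9 amounted to 10.004% of Camp in f/f 1 and 9.95% in cKO 2, but to 0.784% in f/f 2 and 0.473% in cKO 1. Among 23 metalloproteinase genes in the tables, 8 were tested, and Mmp9 and Mmp8 had the highest means, followed by Mmp2 at 5.20 FPKM.

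Lyz2, lysozyme M, which cleaves bacterial cell walls and is made by neutrophils, monocytes and macrophages (chromosome 10, 117277331 to 117282321), ranked between 15 and 206 among all genes. It had 290 FPKM in f/f 1, 2406 in f/f 2, 2904 in cKO 1 and 245 in cKO 2. Its paralog Lyz1 had 0.176, 10.6, 5.85 and 0.270 FPKM, and 15.4% of the 50-base windows of the Lyz2 transcript also occur in Lyz1. In the other 8 genes no such window was shared with another gene, and no annotated gene overlapped any of the 10.

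**Figure D2:**
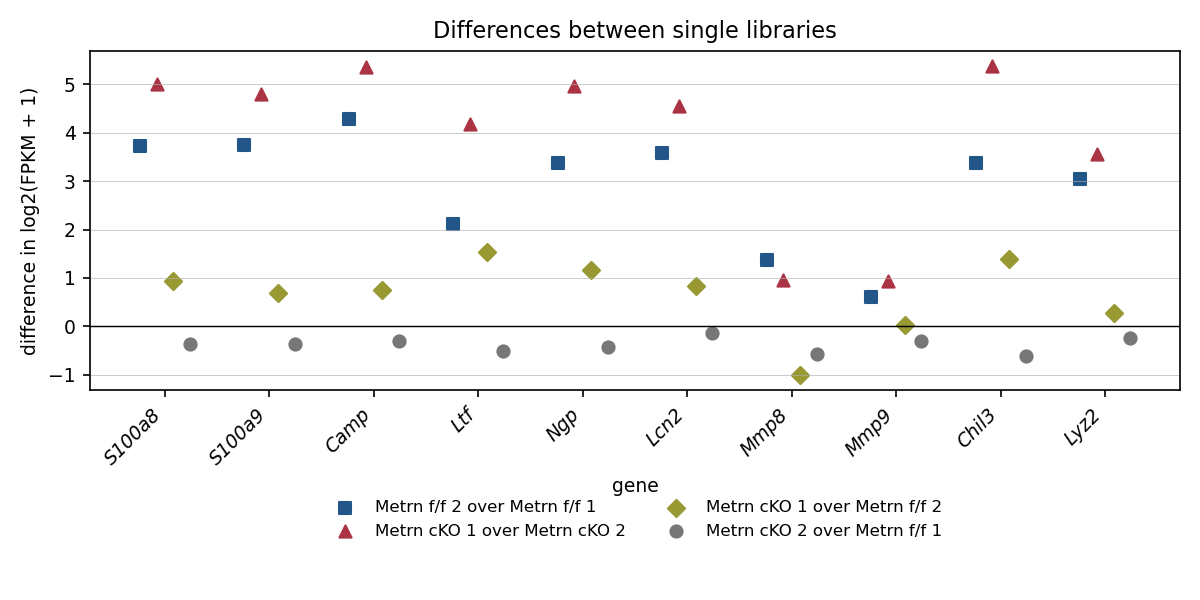
Difference in log2(FPKM + 1) between pairs of single libraries for each of the 10 genes. The differences reach 4.29 between the Metrn f/f libraries and 5.38 between the Metrn cKO libraries, while cKO 2 lies between 0.13 and 0.61 below f/f 1 in every gene.

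Variation within a genotype was compared gene by gene, as ratios of FPKM. Between the Metrn f/f mice the ratio of f/f 2 to f/f 1 was 19.7 for Camp, 13.5 for S100a9, 13.2 for S100a8, 12.1 for Lcn2 and 10.5 for both Chil3 and Ngp. It was 8.28 for Lyz2, 4.37 for Ltf, 2.70 for Mmp8 and 1.54 for Mmp9. Between the Metrn cKO mice the ratio of cKO 1 to cKO 2 was 42.3 for Chil3, 41.0 for Camp, 32.4 for S100a8 and 31.4 for Ngp, and it was 28.0 for S100a9, 23.8 for Lcn2 and 18.2 for Ltf. It was 11.9 for Lyz2, 2.03 for Mmp8 and 1.95 for Mmp9. In both genotypes the metalloproteinase genes thus had the smallest ratios of the set. These ratios compare single mice and have no test.

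In counts, 9 of 10 genes, all but Mmp9, differed at least 2-fold in both of these pairs in this direction, against 5.88% of tested genes. At least 8-fold in both were 7 genes, all but Ltf, Mmp8 and Mmp9, against 1.54% of tested genes. The sums of FPKM also differed, so the ratios depend on scaling. As shares of each library's sum, the ratio of f/f 2 to f/f 1 was 7.73 for S100a8 and 11.5 for Camp, and that of Mmp9 turned to 0.901. Scaled by median ratios, the values were 16.5, 24.5 and 1.92. As shares, 8 of the 10 genes differed at least 2-fold in both pairs (3.34% of tested genes), without Mmp8, and 1, Camp, at least 8-fold (1.02%). With median-of-ratios scaling the counts were 9 (8.76%) and 7 (1.86%). Together the 10 genes made up 0.731% of the FPKM sum in f/f 1, 5.24% in f/f 2, 11.3% in cKO 1 and 0.543% in cKO 2. Of the 20 most abundant genes, 4 in f/f 2 and 7 in cKO 1 were members, and 0 in the other libraries.

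**Figure D3:**
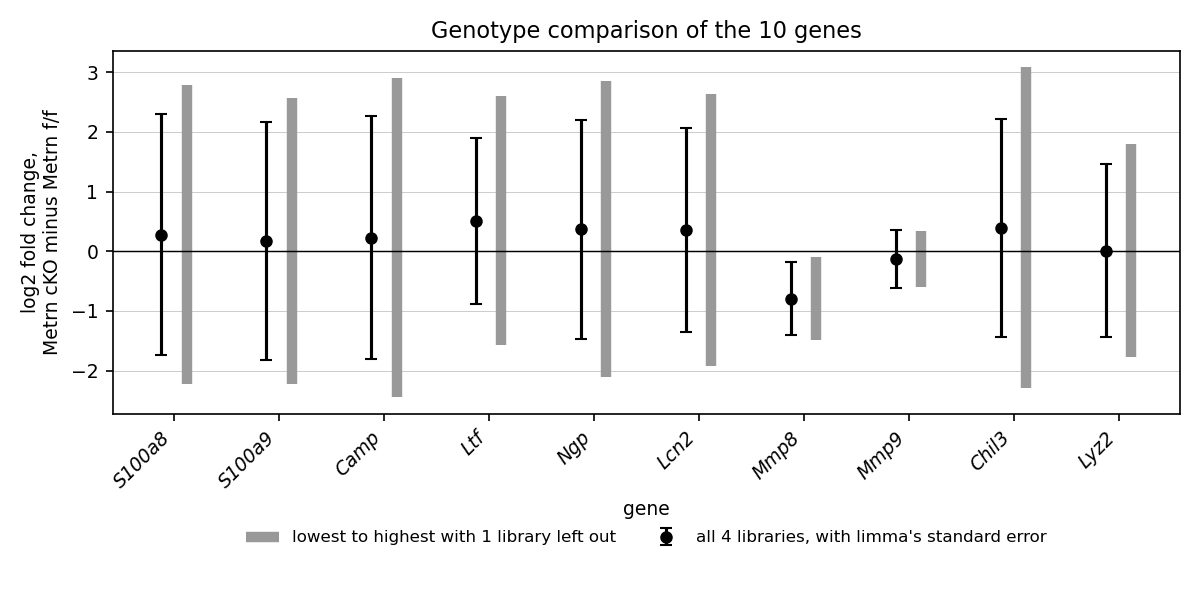
Log2 fold change of Metrn cKO against Metrn f/f for each gene with limma's standard error (points, 4 libraries), and the range of that value when each library in turn is left out (bars). The point of Mmp8 lies at -0.79 and those of the other genes between -0.13 and 0.51, and in every gene but Mmp8 the bar crosses 0.

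The comparison of genotypes asked whether loss of myeloid Metrn goes with another level of these genes in LSK cells. None of the 10 was called by limma on log2(FPKM + 1), where every member had an adjusted p of 1.00 over all 13148 genes, and 0% of tested genes were called. At an unadjusted p under 0.05 there were 0 members and 39 genes in all (0.297%). The mean of S100a8 was 5377 ± 6535 FPKM in Metrn f/f mice and 9797 ± 13027 in Metrn cKO mice (SD over 2 libraries), and its log2 fold change was 0.28 (SE 2.02). Camp had 0.23 (SE 2.04), Ngp 0.37 (SE 1.84), Ltf 0.51 (SE 1.39), Lcn2 0.35 (SE 1.71) and Chil3 0.40 (SE 1.83). S100a9 had 0.17 (SE 2.00), Lyz2 0.01 (SE 1.45) and Mmp9 -0.13 (SE 0.48). The mean of Mmp8 was 29.7 ± 19.3 FPKM in Metrn f/f mice against 15.7 ± 7.57 in Metrn cKO mice, a log2 fold change of -0.79 (SE 0.61), and in deposited FPKM the genotypes overlapped here too. Only Mmp8 had a fold change larger than its standard error.

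In 0 of the 10 genes did the genotypes separate, against 12% of tested genes (6.31% with both Metrn cKO libraries above and 5.73% with both below). The count was also 0 with median-of-ratios scaling, but as shares of the sum it was 1, with Mmp8 below in both Metrn cKO libraries, as in 5.72% of tested genes. The median log2 fold change of the set was 0.25, against 0.07 over all tested genes. It was -1.46 without f/f 1, 2.05 without f/f 2, -2.02 without cKO 1 and 2.62 without cKO 2, so each single library set its sign or its size. Library cKO 2 was lower than f/f 1 in all 10 genes (57.9% of tested genes were higher there), with ratios from 0.648 for Mmp8 to 0.911 for Lcn2. At least 2-fold differences numbered 0 in this pair, against 2.75% of tested genes higher and 2.42% lower. Library cKO 1 was higher than f/f 2 in 9 genes, against 54.9% of tested genes, and at least 2-fold higher in 3 (Ltf at 2.91, Chil3 at 2.64 and Ngp at 2.24), against 14.7%. Mmp8, at 0.487, was at least 2-fold lower there, against 9.51% of tested genes. As shares of the sum, 6 genes (S100a8, Camp and Lcn2 besides these 3) were at least 2-fold higher in cKO 1 than in f/f 2, against 22.7% of tested genes, and 0 at least 2-fold lower, against 5.59%.

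Lyz2 was also read against the rest of the set, because the driver lies in its locus and the LysM-Cre allele in common use disrupts lysozyme M. On the log2(FPKM + 1) scale, Lyz2 stood above the mean of the other 9 genes by 0.98 in f/f 1, 1.11 in f/f 2, 0.68 in cKO 1 and 1.13 in cKO 2. The genotypes overlapped, with a difference of -0.14 between Metrn cKO and Metrn f/f (exact permutation test, 2-sided, p = 1.00, where 4 libraries allow no p below 0.333). Without cKO 1 the difference was 0.085. How far Lyz2 stood above depended on the reference genes, which here include the less variable Mmp8 and Mmp9. Against Lcn2 alone the values were 1.10 in f/f 1, 0.55 in f/f 2, -0.01 in cKO 1 and 0.99 in cKO 2. The labels do not say how many copies of LysM the mice carried.

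**Figure D4:**
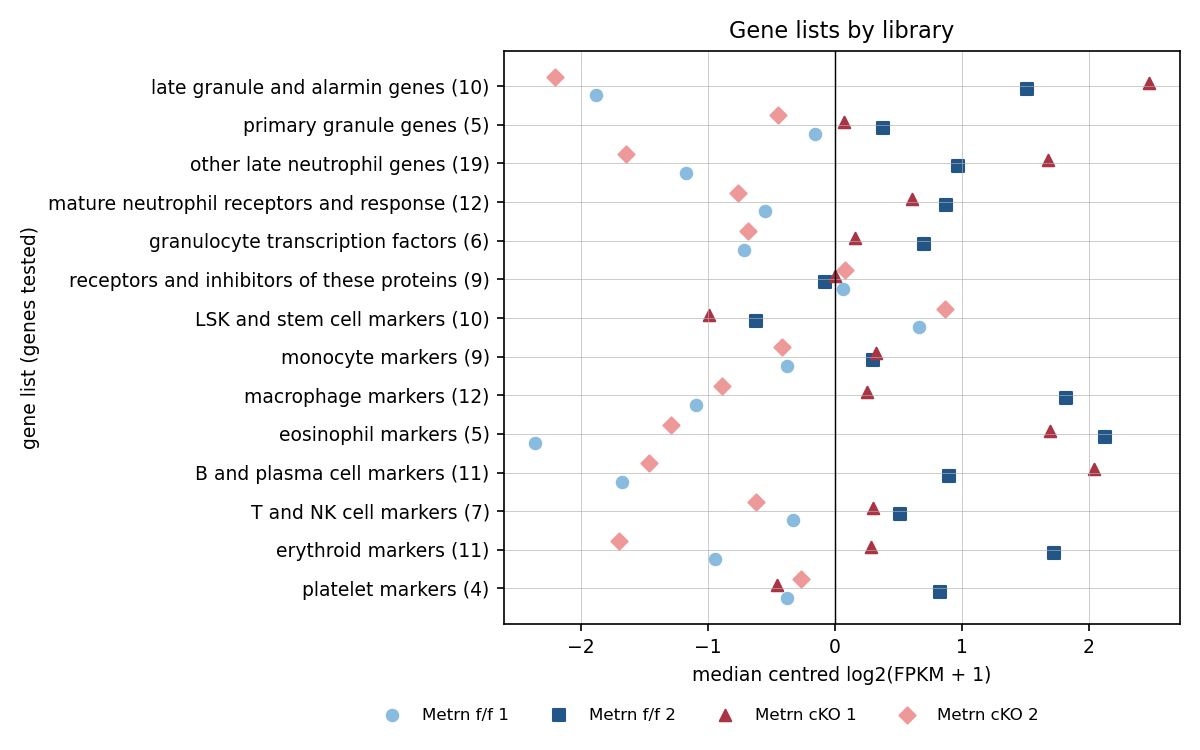
Median level of each gene list in each library, as log2(FPKM + 1) minus the gene's mean over the 4 libraries, with the number of genes tested. The late granule and alarmin genes span -2.20 to 2.47, while primary granule genes span -0.45 to 0.38.

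Primary granule genes, which mark the promyelocyte stage, differed less between libraries in deposited FPKM than the alarmins and secondary granule genes. The neutrophil elastase gene Elane had 1628 FPKM in f/f 1, 2589 in f/f 2, 1985 in cKO 1 and 1308 in cKO 2. The myeloperoxidase gene Mpo had 2376, 1352, 1502 and 1997 FPKM, the opposite order within each genotype, and Prtn3, proteinase 3, had 1194, 1964, 1407 and 979. In deposited FPKM 0 of the 5 primary granule genes differed 2-fold within a genotype. As shares of the sum all 5 were lower in f/f 2 than in f/f 1, with ratios of 0.96 for Prtn3, 0.93 for Elane, 0.89 for Ms4a3, 0.76 for Ctsg (cathepsin G) and 0.33 for Mpo, so that Mpo passed 2-fold. Together the 5 genes took 1.48% of the sum in f/f 1, 1.00% in f/f 2, 0.989% in cKO 1 and 1.17% in cKO 2. With median-of-ratios scaling Prtn3 was 2.05-fold higher in f/f 2 than in f/f 1, and Ms4a3 2.16-fold higher in cKO 1 than in cKO 2. In deposited FPKM 1 of 5, Ctsg, was lower in each Metrn cKO library (455 and 414 FPKM) than in either Metrn f/f library (469 and 611), against 5.73% of tested genes, and it overlapped under both other scalings. The mean log2 level of the 10 late genes minus that of the 5 primary genes was -2.33 in f/f 1, 0.28 in f/f 2, 1.19 in cKO 1 and -2.46 in cKO 2. Its mean was -1.02 ± 1.85 (SD) for the Metrn f/f mice against -0.64 ± 2.58 for the Metrn cKO mice, a difference smaller than either spread.

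Most other genes of late neutrophils differed in the same direction. Of 19 tested, 17 were at least 2-fold higher in f/f 2 than in f/f 1 (16.4% of all tested genes) and 17 in cKO 1 than in cKO 2 (8.37%). Pglyrp1, a peptidoglycan recognition protein of granules, had 64.8 FPKM in f/f 1, 477 in f/f 2, 764 in cKO 1 and 58.9 in cKO 2. Anxa1, annexin A1, had 105, 339, 592 and 96.8 FPKM, and Hp, haptoglobin, had 95.9, 326, 479 and 70.6. None was called between genotypes by limma, and 1, Padi4, had no overlap between genotypes, with 31.1 and 25.8 FPKM in Metrn f/f and 40.2 and 32.9 in Metrn cKO, against 6.31% of tested genes. Padi4 overlapped under both other scalings. As shares of the sum the 2-fold counts were 15 (5.54% of all tested genes) and 17 (5.80%).

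Receptors and response genes of mature neutrophils were lower in level. Of 12 tested, 9 were at least 2-fold higher in each of these pairs, or 7 as shares of the sum. The 9 were not all the same genes, and in deposited FPKM 8 were at least 2-fold higher in both pairs. Csf3r, the G-CSF receptor, which progenitors also express, did not vary in this way, with 79.4, 43.1, 46.7 and 68.8 FPKM. Fcgr3, an antibody receptor, had 36.3, 92.5, 74.4 and 25.3 FPKM. Cxcr2, the chemokine receptor of neutrophils that leave the marrow, had 3.08, 9.18, 8.26 and 2.12 FPKM. Among the 6 granulocyte transcription factors, Cebpe, the C/EBP epsilon gene, had 23.8, 106, 202 and 22.6 FPKM, the order of the late granule genes. Cebpb had 30.8, 238, 56.8 and 26.7 FPKM, with f/f 2 apart, and Spi1, which encodes PU.1, had 94.4, 205, 176 and 107. None of the 6 was called by limma, and 1, Cebpa, did not overlap, with 42.3 and 48.0 FPKM in Metrn f/f and 36.4 and 40.2 in Metrn cKO, against 5.73% of tested genes below in both. Cebpa overlapped under both other scalings.

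Receptors and inhibitors of these proteins were mostly low. Bsg, a receptor of S100A9, had 117 FPKM in f/f 1, 274 in f/f 2, 149 in cKO 1 and 126 in cKO 2. Cd14, the co-receptor of the calprotectin receptor TLR4, had 2.08, 23.5, 4.25 and 0.932 FPKM. Timp2, an inhibitor of metalloproteinases, had 6.30, 14.8, 4.33 and 7.85 FPKM, while Timp1 and Timp4 were listed at 0 in every library. Of the 9 tested, 0 were called, and Reck, a membrane inhibitor of metalloproteinases, was higher in each Metrn cKO library (2.65 and 2.38 FPKM) than in either Metrn f/f library (2.16 and 1.157), against 6.31% of tested genes. As shares of the sum Reck overlapped.

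The genes nearest to the set in profile were sought among 8881 others with a mean of at least 4 FPKM. Predicted, RIKEN, clone-named and pseudogene symbols and those beginning with Igh, Igk or Igl, such as Ighm and Igll1, were left out beforehand. Likeness was the root mean square difference over the 4 libraries between the gene's centred log2(FPKM + 1) and the mean centred profile of the 10 genes. The nearest were Pglyrp1 (0.13), Chil1 (0.14), Cd79a (0.14), Vpreb2 (0.16), Vpreb3 (0.19), Wfdc21 (0.19), Mzb1 (0.21) and Ly6a2 (0.23). Cd79a, Vpreb2, Vpreb3 and Mzb1 are genes of B lineage cells, and Cd79a had 14.9, 129, 200 and 14.8 FPKM. Among the members themselves the distance was smallest for Lyz2 (0.16) and largest for Mmp9 (1.36) and Mmp8 (1.28). Mmp9 kept the order of libraries of the set, so the measure also reflects the size of the differences. With 4 libraries such likeness describes the order and size of the differences between libraries and little more.

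Markers of several other cell types moved with the set, and their part in it was not tested. B and plasma cell markers were at least 2-fold higher in f/f 2 than in f/f 1 for 10 of 11 genes and in cKO 1 than in cKO 2 for all 11. Their summed level was 206 and 1263 FPKM in Metrn f/f and 4490 and 261 in Metrn cKO, led by Ighm, Jchain and Cd79a. Erythroid markers were at least 2-fold higher in these pairs for 11 and 8 of 11 genes. They summed to 4113 and 37946 FPKM in Metrn f/f and 31573 and 3380 in Metrn cKO, led by the globins Hba-a1, Hbb-bs and Hba-a2. Eosinophil markers were at least 2-fold higher for 4 of 5 genes in both pairs. They summed to 97.9 and 2206 FPKM in Metrn f/f and 1721 and 169 in Metrn cKO, led by Prg2, Ear2 and Ear6. In cKO 1 against f/f 2, 1 of 11 erythroid and 2 of 5 eosinophil markers were higher by any amount in deposited FPKM. Of all tested genes 54.9% were. In the set 9 of 10 genes were, as were 11 of 11 B and plasma cell markers and 16 of 19 other late neutrophil genes.

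Macrophage markers were at least 2-fold higher within the Metrn f/f and Metrn cKO pairs for 12 and 8 of 12 genes. Their order also differed from that of the set. Their sums were 57.6 and 1191 FPKM in Metrn f/f and 229 and 70.8 in Metrn cKO, and Marco was listed at 0 in 3 libraries. The highest were the complement genes C1qb, C1qa and C1qc, and C1qb had 297 FPKM in f/f 2 against 48.4 in cKO 1, the reverse of the order of S100a8 in these libraries. Monocyte markers were at least 2-fold higher in these pairs for 3 and 5 of 9 genes. They summed to 495 and 1032 FPKM in Metrn f/f and 1157 and 426 in Metrn cKO, led by Ly6c2, Irf8 and Ms4a6c. T and NK cell markers were at least 2-fold higher for 5 and 4 of 7 genes. They summed to 166 and 282 FPKM in Metrn f/f and 204 and 166 in Metrn cKO, led by Nkg7, Lck and Cd4. Platelet markers (Pf4, Itga2b and Gp9 the highest) were at least 2-fold higher for 3 and 1 of 4 genes. They summed to 34.2 and 89.4 FPKM in Metrn f/f and 22.3 and 30.7 in Metrn cKO. As shares of the sum the counts at 2-fold were 12 and 5 of 12 for macrophage, 1 and 3 of 9 for monocyte, 9 and 11 of 11 for B and plasma cell and 10 and 7 of 11 for erythroid markers. Ly6g, which marks neutrophils, had 7.18, 56.3, 59.1 and 4.26 FPKM. The lineage antibodies of the sort are not named in the sources used here.

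In the S100 family, 16 genes were in the tables and 8 were tested. After the alarmins the highest was S100a11 with 175 FPKM in f/f 1, 500.5 in f/f 2, 469 in cKO 1 and 143 in cKO 2. S100a10 had 80.9, 253, 119 and 104 FPKM and S100a6 20.1, 131, 57.7 and 20.8. In deposited FPKM f/f 2 was the highest library in all 6 tested members other than the alarmins, whereas S100a8 and S100a9 were highest in cKO 1. As a share of the sum S100a11 was highest in cKO 1 too.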

How the data were processed

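LSK cells of 4 mice were sorted by FACS and their RNA sequenced on Illumina libraries, per the labels' protocols. The build is mm10, and the submitters' processing notes list, with no role given, DESeq2 2.11.40.6, featureCounts 1.6.4, HISAT2 2.1, cutadapt 1.16.5 and bcl2fastq 2.19. The sources used here do not name the annotation or the strand setting. The values that the authors deposited, 1 per gene and library, were taken as FPKM from their decimals and unequal sums, since the headers name no unit. FPKM are shares, so very abundant transcripts lower all others. Read totals could not be recovered: at most 10.1% of low values of single-exon genes were whole multiples of a common step, within 2% of a read.

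Genes that reached 1 FPKM in 2 or more libraries were tested by limma 3.58.1 (R 4.3.3) on log2(FPKM + 1) with an intensity trend, 2-sided, with Benjamini-Hochberg adjustment over 13148 genes and a threshold of 0.05. A log2 fold change on this scale understates that of low genes, and fold changes between single libraries are ratios of FPKM unless named otherwise. The test was also run on simulated data with the same spread in every gene, taken from f/f 1 and cKO 2, the closest pair. Libraries of the same genotype differed far more, so that run does not show the power of the test here. Coordinates are from GENCODE M21 on GRCm38 (mm10).

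The 10 genes and the companion lists were chosen with earlier results of these data known. Named genes were all members, the 3 genes with the highest mean in each list and family, Metrn, Lyz1 and the 8 genes nearest in profile, and 1 gene under this rule is not reported here. Kit, Ly6a, Ly6g, Cxcr2, Marco, Chil4, Timp1, Timp4, Padi4, Ctsg, Ms4a3, Cebpa and Reck, which fall outside this rule, were chosen after their values were seen, as was the comparison of late with primary granule genes. Of the other late neutrophil genes BC100530 had no row. Where genes of a list are counted against 2-fold, the share of all tested genes is given once. P-values measure the spread between these mice only.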

Additional observations from a re-analysis of the deposited data

How the results depend on the processing

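None of the 10 genes was called under any alternative (limma, smallest adjusted p 0.595). The alternatives were a pseudocount of 0.1, no filter, median-of-ratios scaling, rescaling to a common sum, the replicate block and leaving out each library. With 1 library left out, the log2 fold change ran from -2.23 to 2.79 for S100a8, -2.23 to 2.57 for S100a9, -2.45 to 2.91 for Camp, -1.57 to 2.60 for Ltf, -2.12 to 2.85 for Ngp, -1.93 to 2.63 for Lcn2, -2.29 to 3.08 for Chil3, -1.77 to 1.79 for Lyz2 and -0.60 to 0.33 for Mmp9. That of Mmp8 stayed below 0. Such a fit assumes that the lone library varies like the other group. Median-of-ratios scaling turned Lyz2 to -0.050. Chosen after seeing the data, Metrn cKO 2 minus Metrn f/f 1 alone gave -0.37 for S100a8, -0.36 for S100a9, -0.30 for Camp, -0.51 for Ltf, -0.42 for Ngp, -0.13 for Lcn2, -0.61 for Chil3 and -0.25 for Lyz2, with no test. Lyz2 relative to the other 9 genes ran from -0.37 to 0.085 with 1 library left out and was 0.15 in that pair. The causes were not tested.

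Over all genes, 0 were called with all 4 libraries. With 1 library left out, 0 to 32 were called higher (32 without cKO 2) and 0 to 5 lower (5 without cKO 1). With the replicate number as a block, 3 were called higher and 1 lower. The labels do not say that a number marks a shared litter or day, and same-numbered libraries deviated in opposite directions (correlation of deviations -0.71 over 13148 genes). With the numbers crossed, an alternative chosen after seeing the data, 37 were called higher and 65 lower.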
